A study of Mus musculus with 12 samples.

Results

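The genes of fatty acid oxidation and ketone body metabolism were followed in mouse duodenum across weaning and across the loss of Onecut2, which encodes a DNA-binding protein with a cut domain and a homeodomain. The group was set by a list of 43 gene symbols, chosen with earlier results of these data known. Shares over all genes are set beside its counts as a reference, not as an independent test. Of the 43 symbols, 41 had a feature paired with that symbol alone, out of 19938 such genes on the array. Acsl1 had no such feature, and Acsl3 appeared only in a feature shared with another symbol.

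RNA came from duodenal segments of strain 129 mice. The 4 groups were wild type at postnatal day 15, Onecut-2 knockout at day 15, wild type at day 30 and Onecut-2 knockout at day 30. Day 15 lies in the suckling period and day 30 after weaning. Each group had 3 arrays, and each array held a pool of RNA from 5 to 8 mice of mixed sex with no treatment. The labels state that the gene was ablated, but not the allele or whether the loss was limited to a tissue. Replicates were separate pools, so their spread holds pool and array differences together and does not measure that between single mice.

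Mitochondrial beta-oxidation shortens fatty acids step by step. Acyl-CoA synthetases activate the acid, the carnitine shuttle carries it across the mitochondrial membranes, and each round of dehydrogenation, hydration, dehydrogenation and thiolysis releases acetyl-CoA and passes electrons to the respiratory chain. Peroxisomes begin the oxidation of very long chains. Acetyl-CoA can be turned into ketone bodies, which other cells convert back for fuel. The nuclear receptor PPARA switches on many of these genes when fatty acids are abundant, as they are in a pup fed on milk fat, and the suckling small intestine is known to express the enzymes of ketone formation.

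Values are log2 expression values, so a difference of 1 is a doubling. A gene is said to have risen or fallen only where limma's moderated test, adjusted by Benjamini-Hochberg over all 19938 genes, gave an adjusted p under 0.05. The precision is limited by the number of arrays. Onecut2 itself was lower in the knockout: at day 15 it measured 9.64 ± 0.08 in wild type and 8.14 ± 0.05 in the knockout, and at day 30 the values were 9.58 ± 0.07 and 8.22 ± 0.03 (SD, n = 3; limma adjusted p = 2.0e-08 and 8.8e-08). Array medians lay between 7.20 and 7.26. The tissue label was checked against epithelial markers: Epcam lay between 12.10 and 12.26, the microvillus gene Vil1 between 12.58 and 12.92 and the enterocyte gene Alpi between 13.21 and 13.65. Adipoq, a defining gene of fat cells, stayed between 4.41 and 5.09, at percentile 7.22 of all genes by its mean. Of 5 measured hepatocyte markers, Alb (5.37 to 5.92) and Apoh (5.34 to 5.62) lay at percentiles 17.1 and 14.9 and Tat (6.30 to 7.87) and Ttr (7.91 to 9.19) at 36.8 and 69.0, while Cps1, which enterocytes also express, lay between 12.87 and 13.25. Pancreatic transcripts were present in the segments at high levels: all 8 measured markers of acinar cells, the enzyme-secreting cells of the pancreas, ranked at or above percentile 97.6, from Cela1 (10.15 to 12.70) to Ctrb1 (13.76 to 14.26). In bulk RNA, fewer cells of a type and less RNA per cell cannot be told apart.

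From day 15 to day 30 in wild type duodenum, most genes of the group fell. Of 41 measured members, 32 fell and 4 rose, where 17.0% of all genes tested fell and 12.3% rose (29.3% called in either direction). The members' median log2 fold change was -0.43 against 0.02 over all genes. In the knockout, 23 members fell and 5 rose, where 17.2% and 13.8% of all genes did (31.0% in either direction), and the medians were -0.35 and 0.03. All 3 values at day 30 lay below all 3 at day 15 for 33 members in wild type, where 23.1% of all genes had that pattern, and for 26 in the knockout, where 22.0% did. The fall was called in both genotypes for 23 members and in wild type alone for 9. The comparisons in the knockout and in wild type use different arrays, and the test of the difference between them is given below.

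**Figure D1:**
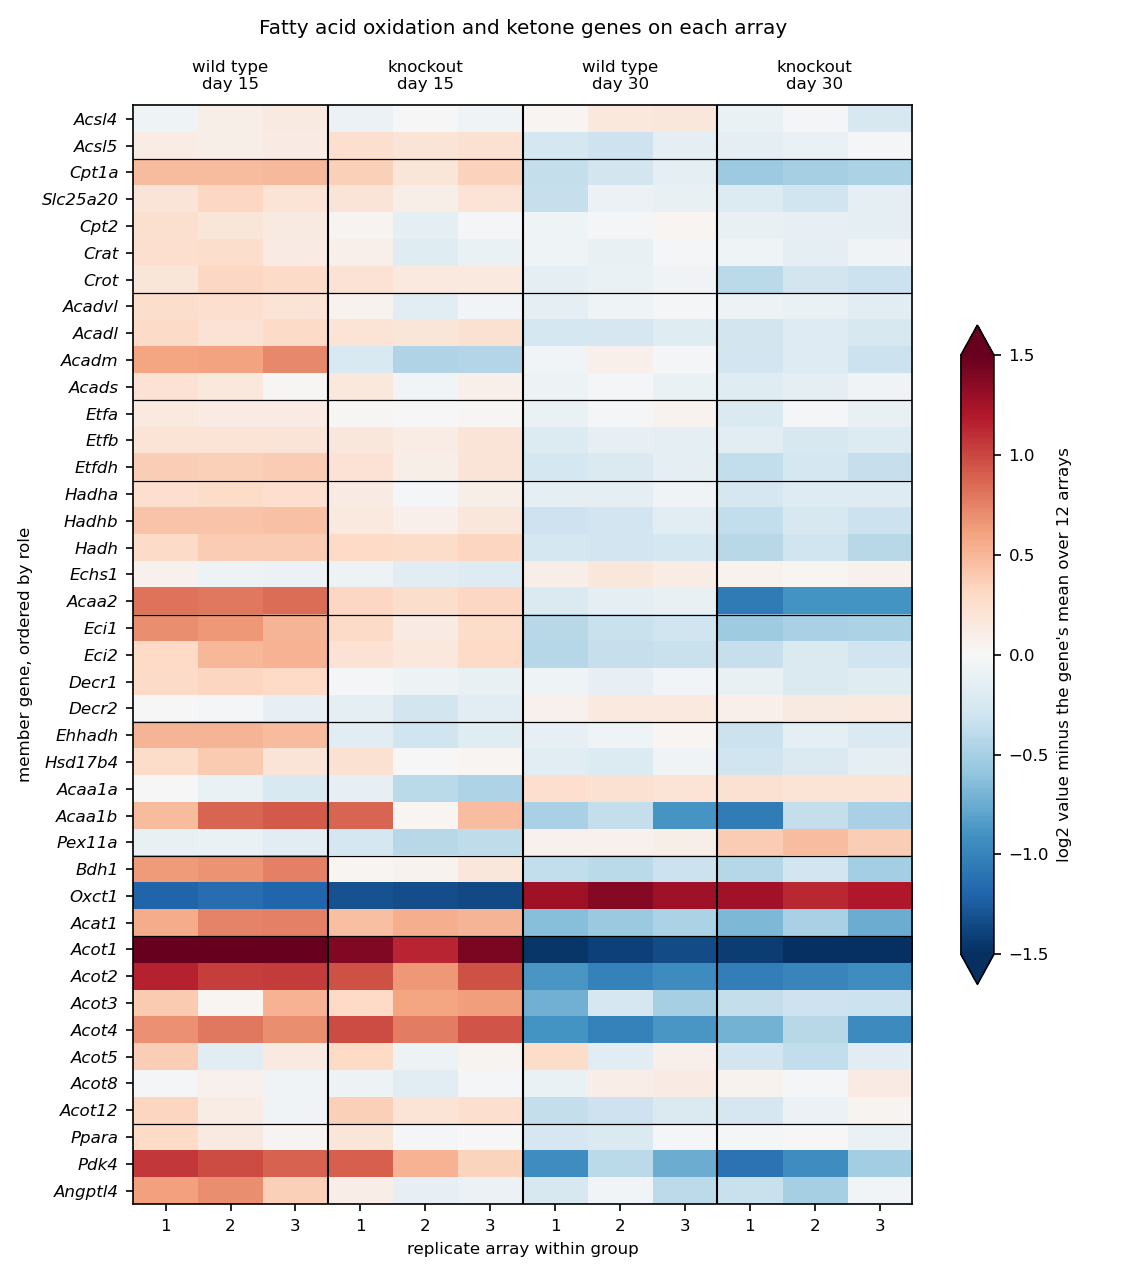
Each row is 1 of 41 member genes, ordered by role, and each column 1 of 12 arrays. The colour gives the log2 value minus that gene's mean over the 12 arrays, with colours saturating at 1.5 in either direction, so that most rows turn from red at day 15 to blue at day 30 and Oxct1 runs the other way.

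Transcripts for the entry of fatty acids into mitochondria mostly fell with age. Of the 2 measured acyl-CoA synthetases, Acsl5, a form abundant in enterocytes, fell by 0.35 (SE 0.05) in wild type and by 0.32 (SE 0.05) in the knockout. Acsl4, which prefers arachidonic acid, had changes of 0.07 and -0.07 that were not called. All 5 genes of the carnitine shuttle fell in wild type, by 0.20 to 0.74. Cpt1a, which makes acylcarnitine at the outer membrane and sets the rate of entry, fell by 0.74 in wild type and by 0.80 in the knockout (SE 0.07 each). Crot, the peroxisomal carnitine octanoyltransferase, fell by 0.36 and 0.50. The carrier Slc25a20 fell by 0.42 and 0.37. Cpt2, which returns the acyl group to CoA inside the mitochondrion, fell by 0.20 in wild type, and its change of -0.08 in the knockout was not called. The fall of Cpt2 in wild type was lost without wild type day 15 array 1 (-0.18, limma adjusted p = 0.062) and without wild type day 30 array 1 (-0.18, limma adjusted p = 0.070).

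The genes of the oxidation spiral fell as well. All 4 acyl-CoA dehydrogenases, each acting on another chain length, fell in wild type, and only the long-chain enzyme Acadl was called in the knockout (-0.50 and -0.44, SE 0.05 each). Acads, for short chains, had the smallest change, -0.20, with a limma adjusted p of 0.044. Its call ended in 8 of the 12 fits that left out 1 array, with changes between -0.22 and -0.16 and limma adjusted p from 0.051 to 0.14. These were the fits without any single wild type array other than day 15 array 3, without knockout day 15 array 3 and without knockout day 30 arrays 1 or 2. Of the electron transfer genes, Etfb and Etfdh, which pass electrons from the dehydrogenases to ubiquinone, fell by 0.36 and 0.58 in wild type and by 0.36 and 0.49 in the knockout. Etfa had changes of -0.15 and -0.14 that were not called.

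The next steps are carried out by the trifunctional protein (Hadha and Hadhb), the short-chain hydroxyacyl-CoA dehydrogenase Hadh, the enoyl-CoA hydratase Echs1 and the thiolase Acaa2. Hadha fell by 0.37 in wild type and 0.28 in the knockout, and Hadh by 0.62 and 0.68. Hadhb fell by 0.68 and 0.44, and its other feature gave like levels. Echs1 ran the other way, with 0.16 in wild type, not called, and a rise of 0.20 in the knockout (SE 0.06, limma adjusted p = 0.020). That rise was not called without knockout day 15 array 2 or 3 or knockout day 30 array 1 or 3 (0.17 to 0.19, limma adjusted p from 0.052 to 0.082). Among the enzymes that prepare unsaturated chains, the isomerases Eci1 and Eci2 fell by 0.97 and 0.81 in wild type and by 0.73 and 0.51 in the knockout. Their peroxisomal companion Decr2 rose by 0.17 and 0.31, the former not called without any single 1 of 5 arrays (wild type day 15 arrays 2 and 3, wild type day 30 arrays 2 and 3, knockout day 15 array 3; 0.14 to 0.18, limma adjusted p from 0.051 to 0.16).

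**Figure D2:**
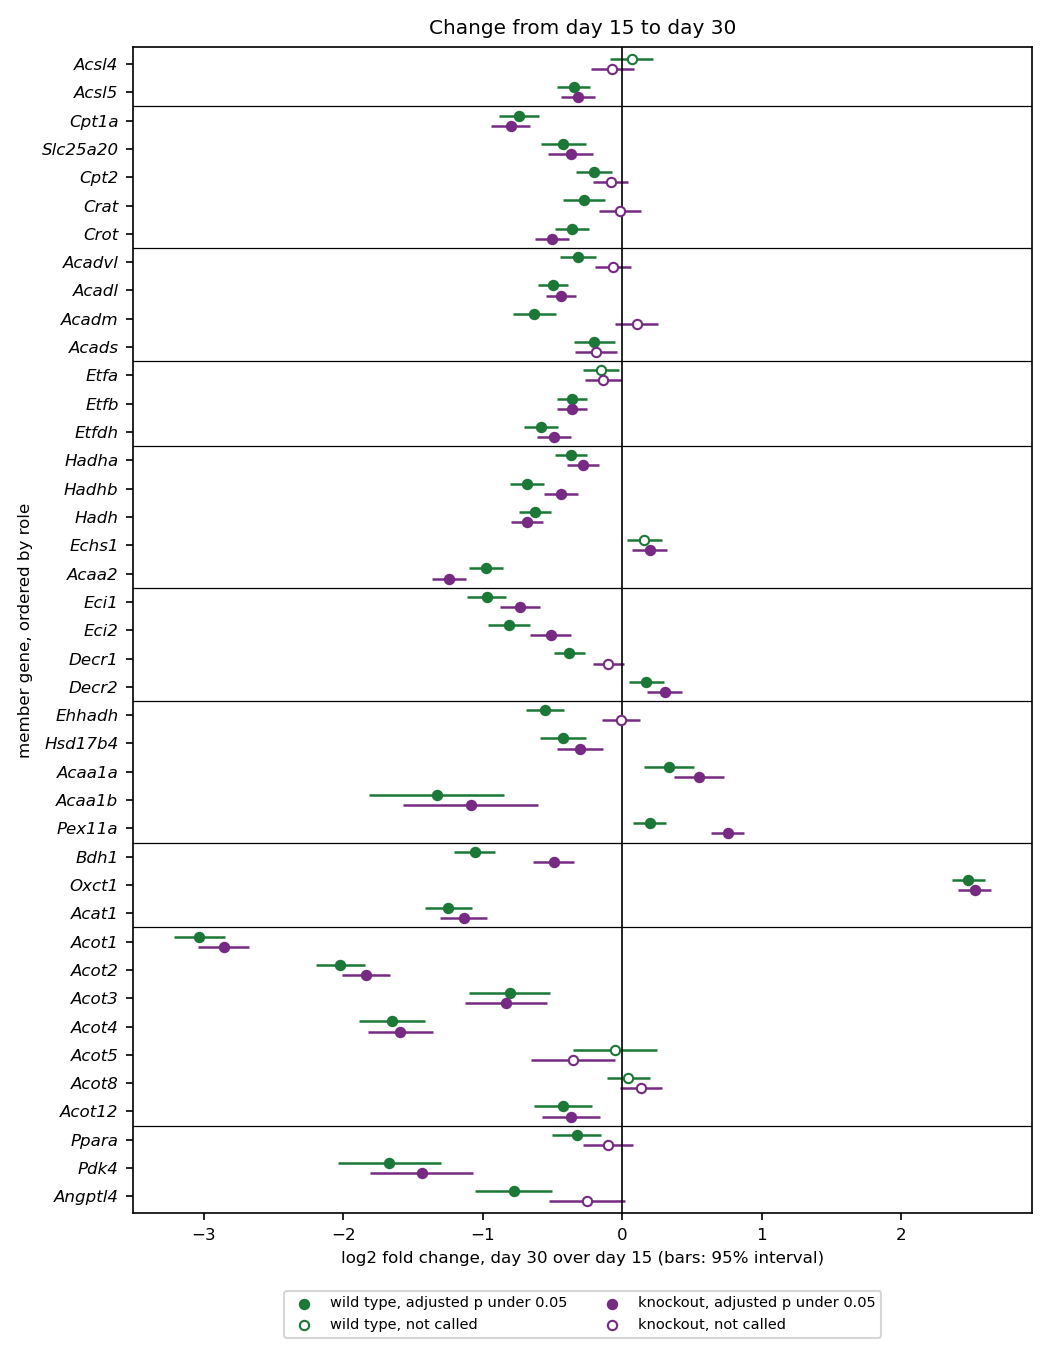
Log2 fold change from day 15 to day 30 for each of 41 member genes, ordered by role, in wild type (green) and knockout (purple), with 95% intervals from limma; filled points are called and open points are not. In wild type 32 members lie to the left as called and 4 to the right.

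The thioesterases, which split acyl-CoA back into free acid and CoA, held the largest falls of the group. Acot1, a cytosolic enzyme, measured 9.57, 9.49 and 9.37 in wild type at day 15 and 6.39, 6.44 and 6.50 at day 30. In the knockout it measured 9.24, 8.98 and 9.26 at day 15 and 6.42, 6.25 and 6.22 at day 30. The ages were far apart in both genotypes. Acot1 fell by 3.03 in wild type (SE 0.08, limma adjusted p = 1.5e-10), to 12.2% of the day 15 level, and fell by 2.86 in the knockout (SE 0.08). Acot2, its mitochondrial relative, measured 10.95, 10.84 and 10.85 in wild type at day 15 and 8.92, 8.78 and 8.86 at day 30. In the knockout Acot2 measured 10.75, 10.46 and 10.76, then 8.76, 8.82 and 8.87, so the ages did not overlap. It fell by 2.02 and 1.84 (SE 0.08 each). Acot4, a peroxisomal enzyme, measured 10.03, 10.13 and 10.04, then 8.44, 8.32 and 8.47 in wild type. In the knockout Acot4 measured 10.31, 10.11 and 10.29, then 8.63, 8.92 and 8.39. Its ages were again fully apart, and it fell by 1.65 and 1.59 (SE 0.11 each).

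Acot2, Acot1, Acot4, Acot3, Acot5 and Acot6 are 6 coding genes in a row on chromosome 12 in the RefSeq gene table. Acot3 fell by 0.81 and 0.83, and Acot6, which was not a listed member, by 1.19 and 0.95. Acot5, with values between 4.15 and 4.88 on every array, had changes of -0.05 and -0.35 that were not called. Acot1 and Acot2 are near-identical copies, so their probes may read each other's transcript, and the 2 falls are not shown to be separate. Outside this row, Acot12, which acts on acetyl-CoA, fell by 0.43 and 0.37, and the fall in the knockout was not called without knockout day 30 array 1 (-0.29, limma adjusted p = 0.052). The peroxisomal Acot8 had changes of 0.04 and 0.13 that were not called.

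The 3 genes of ketone bodies moved in opposite directions with age. Oxct1 encodes the enzyme that activates acetoacetate so that a cell can burn ketone bodies. It measured 9.05, 9.11 and 9.06 in wild type at day 15 and 11.52, 11.63 and 11.52 at day 30. In the knockout it measured 8.94, 8.92 and 8.90, then 11.51, 11.38 and 11.45. Every day 30 array was above every day 15 array. The rise of Oxct1 was 2.48 in wild type, 5.59-fold (SE 0.05, limma adjusted p = 5.5e-11), and 2.53 in the knockout.

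Acat1, the mitochondrial acetoacetyl-CoA thiolase, measured 11.73, 11.92 and 11.93 in wild type at day 15 and 10.53, 10.61 and 10.70 at day 30. The knockout gave 11.62, 11.72 and 11.68, then 10.49, 10.68 and 10.43. Its ages did not overlap, and it fell by 1.25 and 1.14 (SE 0.08 each). Bdh1 interconverts acetoacetate and beta-hydroxybutyrate. It fell by 1.06 in wild type to 48.0% of the day 15 level and by 0.49 in the knockout (SE 0.07 each).

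In peroxisomes, the changes with age were mixed. The thiolase Acaa1b measured 8.58, 8.98 and 9.03 in wild type at day 15 and 7.63, 7.75 and 7.22 at day 30. Its knockout values were 8.98, 8.14 and 8.58, then 7.06, 7.75 and 7.63. Despite the widest spread among the members, the ages did not overlap, and it fell by 1.33 and 1.09 (SE 0.22 each). Its close copy Acaa1a rose by 0.34 and 0.55 (SE 0.08 each), and probes of such copies can read each other's transcript. Hsd17b4, the peroxisomal multifunctional enzyme for branched and very long chains, fell by 0.43 and 0.30. Pex11a, which promotes the division of peroxisomes, rose by 0.20 and 0.76 (SE 0.05 each); without wild type day 15 array 3 the former was 0.18 and not called (limma adjusted p = 0.059).

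The receptor and its fasting-response targets fell in wild type too. Ppara fell by 0.33 in wild type, and its change of -0.10 in the knockout was not called. Pdk4, a kinase that keeps pyruvate out of the mitochondrial fuel supply, measured 10.97, 10.89 and 10.79 in wild type at day 15 and 8.97, 9.50 and 9.16 at day 30. In the knockout Pdk4 measured 10.80, 10.43 and 10.24, then 8.80, 8.97 and 9.39. The ages were apart in both, and Pdk4 fell by 1.67 and 1.44 (SE 0.17 each). Angptl4, a secreted inhibitor of lipoprotein lipase, fell by 0.78 in wild type (SE 0.13), and its change of -0.25 in the knockout was not called.

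Other transcripts moved with age on the same arrays. The mean of 12 smooth muscle markers was 10.74 to 10.84 in wild type at day 15, 10.46 to 10.64 in the knockout at day 15, 10.02 to 10.19 in wild type at day 30 and 10.04 to 10.08 in the knockout at day 30, and 12 of 12 fell in each genotype. With that mean as a covariate, 2 members were called in wild type (1 fell and 1 rose) and 4 in the knockout. The members' median change was then -0.27 and -0.18, against -0.43 and -0.35 without it. The marker mean did not overlap between the ages in either genotype, and the covariate enlarged the SE. In wild type the SE of Acaa2 went from 0.06 to 0.26 (change -0.78) and that of Cpt1a from 0.07 to 0.27 (change -0.30). Neither was then called, so a lost call can reflect the larger SE as well as a smaller change. The 8 pan-epithelial markers had means of 12.10 to 12.11 and 12.23 to 12.27 in wild type at the 2 ages, and 11 members were called in wild type with that mean as a covariate, while their median change was -0.53. Of 8 enterocyte markers, 5 fell and 3 rose in each genotype, and their mean went from 13.25 to 12.84 in wild type and from 13.32 to 13.06 in the knockout. Of 9 T cell markers, 7 rose in each genotype. Of 6 B and plasma cell markers, 5 rose in wild type and 6 in the knockout, and the largest change was 4.98, for Jchain in wild type. The part of enterocytes and immune cells in the members' changes was not tested. Of the 8 pancreatic acinar markers, 0 were called in wild type by limma (also 0 at an unadjusted p under 0.05), and 1 was higher in the knockout.

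At day 15, before weaning, knockout duodenum had lower values of the group. Of 41 members, 11 were lower and 0 higher, where 2.03% of all genes tested were lower and 1.81% higher (3.83% called in either direction). In all, 37 of 41 members had a log2 fold change below 0, against 54.1% of all genes, and the median was -0.19 against -0.01. The 3 knockout values lay below the 3 wild type values for 22 members, a pattern found in 12.2% of all genes. The lower members were 1 of 5 carnitine shuttle genes (Crat), 2 of 4 dehydrogenases and 2 of 5 genes of the next mitochondrial steps. They also held 2 of 4 auxiliary enzymes and 2 of 5 peroxisomal genes. The ketone body and fasting-response genes each gave 1 of 3, Bdh1 and Angptl4. Of the 2 activating synthetases, the 3 electron transfer genes and the 7 thioesterases, 0 were called by limma, and 0, 1 and 2 were lower at an unadjusted p under 0.05.

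**Figure D3:**
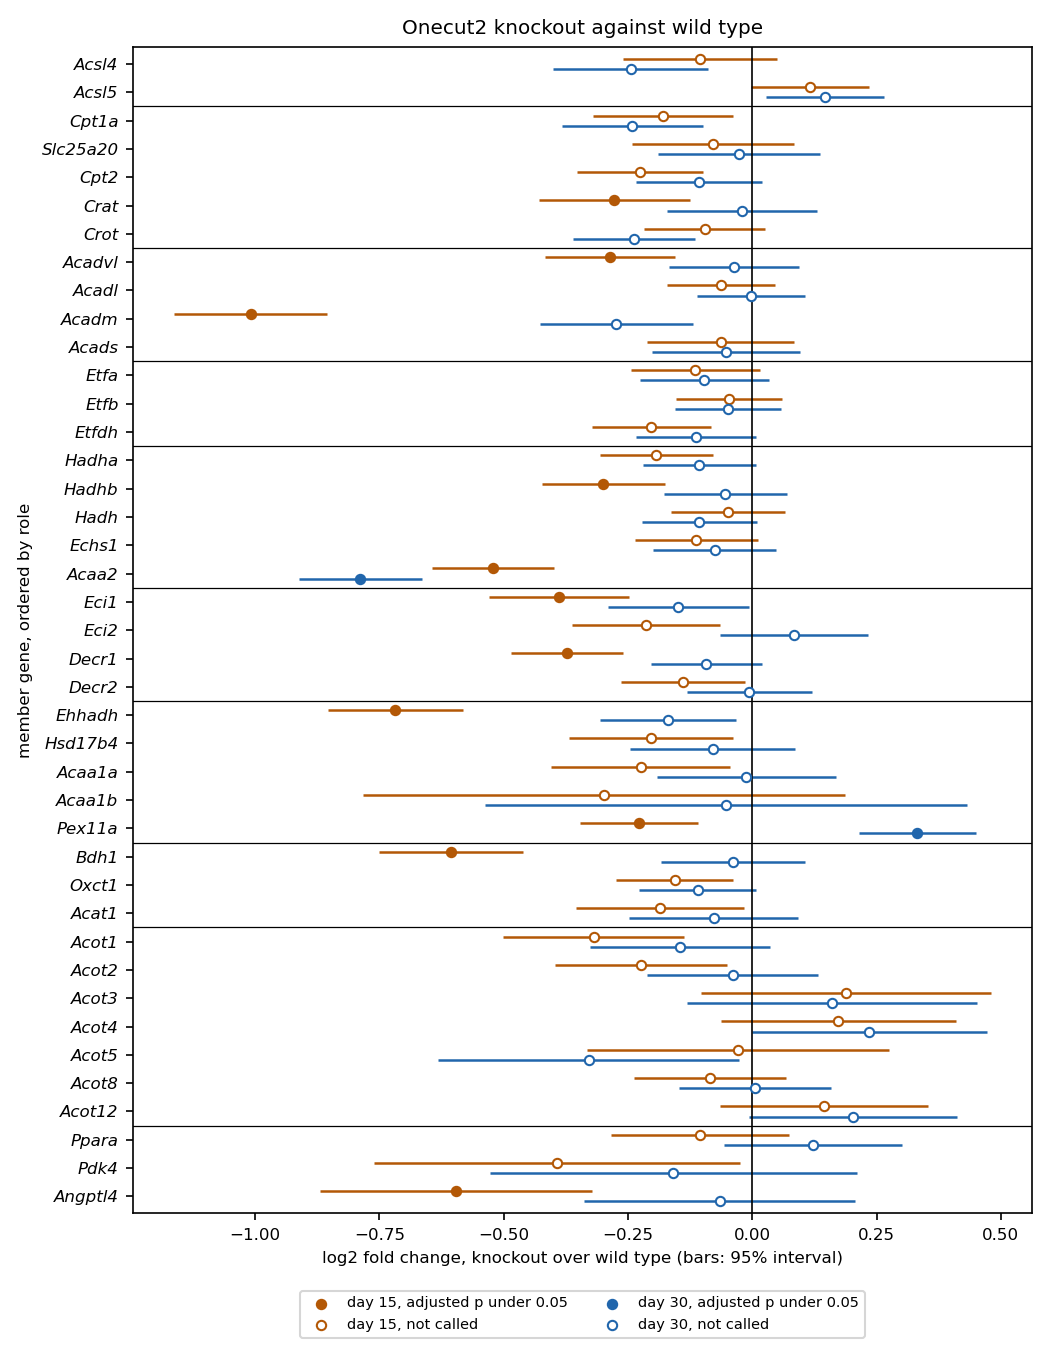
Log2 fold change of knockout over wild type for each of 41 member genes, ordered by role, at day 15 (brown) and day 30 (blue), with 95% intervals from limma; filled points are called and open points are not. At day 15, 11 members are called and all lie to the left; at day 30 Acaa2 lies to the left and Pex11a to the right.

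Acadm, the dehydrogenase for medium chains, differed most. It measured 11.68, 11.69 and 11.80 in wild type at day 15 and 10.86, 10.64 and 10.64 in the knockout. At day 30 it measured 11.04, 11.17 and 11.07 in wild type and 10.80, 10.90 and 10.76 in the knockout. At day 15 the knockout stood at 49.7% of the wild type level (-1.01, SE 0.07, limma adjusted p = 4.0e-06), and its 3 values were also below those of wild type at day 30. At day 30 the difference was -0.27 (SE 0.07), with no overlap between the groups but no call (limma adjusted p = 0.078). Acadm had a change of 0.11 with age in the knockout that was not called, beside its fall of 0.63 in wild type.

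Ehhadh, the bifunctional enzyme of peroxisomal oxidation, measured 11.47, 11.48 and 11.45 in wild type at day 15 and 10.79, 10.67 and 10.79 in the knockout. At day 30 it measured 10.85, 10.90 and 10.99 in wild type and 10.65, 10.83 and 10.75 in the knockout. The knockout was at 60.8% of wild type at day 15 (-0.72, SE 0.06, limma adjusted p = 3.6e-05), and the difference of -0.17 at day 30 was not called. From day 15 to day 30 Ehhadh fell by 0.56 in wild type, while its change in the knockout was -0.01.

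Bdh1 measured 11.19, 11.22 and 11.30 in wild type at day 15 and 10.58, 10.59 and 10.72 in the knockout. At day 30 it measured 10.17, 10.14 and 10.22 in wild type and 10.11, 10.26 and 10.03 in the knockout. The groups were apart at day 15, with the knockout at 65.7% of wild type (-0.61, SE 0.07, limma adjusted p = 0.00021), and overlapped at day 30 (-0.04, SE 0.07).

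Acaa2, a mitochondrial thiolase, was lower in the knockout at both ages. It measured 12.84, 12.82 and 12.85 in wild type at day 15 and 12.33, 12.28 and 12.33 in the knockout. At day 30 it measured 11.81, 11.87 and 11.91 in wild type and 10.97, 11.12 and 11.13 in the knockout. The difference was -0.52 at day 15 (SE 0.06, limma adjusted p = 0.00019) and -0.79 at day 30 (SE 0.06, limma adjusted p = 1.1e-05), where the knockout was at 57.9% of wild type. The change between those differences, -0.27 (SE 0.08), was not called (limma adjusted p = 0.26). Acaa2 lies on chromosome 18, as do Onecut2 and the member Hsd17b4. A part of sequence linked to the targeted locus in the difference of Acaa2 was not tested. Hsd17b4 had genotype differences of -0.20 and -0.08 that were not called.

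The remaining lower members at day 15 had smaller differences. Eci1 measured 10.73, 10.69 and 10.54 in wild type and 10.32, 10.16 and 10.31 in the knockout at day 15, then 9.62, 9.70 and 9.73 against 9.50, 9.55 and 9.56 at day 30. Decr1, the mitochondrial dienoyl-CoA reductase, measured 10.95, 10.99 and 10.97 against 10.65, 10.59 and 10.55, then 10.60, 10.54 and 10.62 against 10.55, 10.45 and 10.49. Both were apart between genotypes at day 15, at -0.39 (SE 0.07, limma adjusted p = 0.0051) and -0.37 (SE 0.05, limma adjusted p = 0.0013).

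Hadhb measured 11.95, 11.94 and 11.96 in wild type and 11.66, 11.60 and 11.69 in the knockout at day 15, then 11.20, 11.23 and 11.36 against 11.15, 11.28 and 11.20. Acadvl, the dehydrogenase for very long chains, measured 10.81, 10.81 and 10.75 against 10.60, 10.40 and 10.51, then 10.42, 10.48 and 10.52 against 10.47, 10.45 and 10.39. Both sets were apart at day 15 and overlapped at day 30. The difference at day 15 was -0.30 for Hadhb and -0.29 for Acadvl (SE 0.06 each, limma adjusted p = 0.012 and 0.020).

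Crat, which exchanges short acyl groups between carnitine and CoA, measured 10.90, 10.91 and 10.78 in wild type and 10.73, 10.47 and 10.56 in the knockout at day 15, then 10.59, 10.54 and 10.64 against 10.59, 10.52 and 10.60. Angptl4 measured 8.83, 8.92 and 8.58 against 8.32, 8.10 and 8.13, then 7.98, 8.18 and 7.83 against 7.89, 7.72 and 8.18. Each was apart at day 15 and overlapped at day 30. The difference at day 15 was -0.60 for Angptl4 (SE 0.13, limma adjusted p = 0.020) and -0.28 for Crat (SE 0.07, limma adjusted p = 0.048). For Pex11a it was -0.23 (SE 0.05, limma adjusted p = 0.038).

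Single arrays bear on the count at day 15. Without knockout day 15 array 2 it was 6, without knockout day 15 array 3 or wild type day 15 array 2 it was 7, and over all 12 fits that left out 1 array it lay between 6 and 13. Crat lost its call in 11 of those fits (limma adjusted p from 0.055 to 0.21) and Pex11a in 9 (limma adjusted p from 0.050 to 0.18). Acadvl and Angptl4 each lost it without wild type day 15 array 1 or 2 or knockout day 15 array 2 or 3. Their limma adjusted p values then lay between 0.061 and 0.099. Hadhb lost it without knockout day 15 array 2 (-0.27, limma adjusted p = 0.066). Acadm, Ehhadh, Bdh1, Acaa2, Eci1 and Decr1 kept theirs in all 12. Members close to the threshold but not called were Cpt2 (-0.23, limma adjusted p = 0.053), Acot1 (-0.32, limma adjusted p = 0.057), Hadha (-0.19, limma adjusted p = 0.066) and Etfdh (-0.20, limma adjusted p = 0.068). At an unadjusted p under 0.05, 24 of 41 members were lower in the knockout at day 15 and 0 higher, where 8.99% of all genes were lower and 6.22% higher.

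Other transcripts differed between the genotypes at day 15. The 12 smooth muscle markers had a median difference of -0.21, with 12 of 12 below 0. By limma 3 were called lower (11 at an unadjusted p under 0.05), and for all 12 the knockout values lay wholly below those of wild type. With their mean as a covariate the members' median was -0.11 and 2 members were called, Acadm (-0.86, limma adjusted p = 0.0065) and Ehhadh (-0.62, limma adjusted p = 0.036). The 8 markers of stomach and Brunner gland, the mucous gland of the proximal duodenum, had a median difference of -0.59 and 3 of 8 were lower. Their mean was 10.91 to 11.16 in wild type and 10.23 to 11.05 in the knockout, and with it as a covariate 5 members were called and their median was -0.13. The 8 pancreatic acinar markers had a median difference of -0.35, with 7 below 0 and 0 called by limma (4 lower at an unadjusted p under 0.05), and for 6 of them the knockout values lay wholly below those of wild type. Their mean was 13.02 to 13.09 in wild type and 12.34 to 12.87 in the knockout. With that mean as a covariate 5 members were called (Acadm, Ehhadh, Bdh1, Acaa2 and Decr1) and the members' median was -0.14. All 23 measured respiratory chain genes had a difference below 0 (median -0.15, 1 of 23 called), and with their mean as a covariate the members' median was -0.05 and 1 was called, Acadm (-0.90, limma adjusted p = 0.032). The pan-epithelial mean was 12.10 to 12.11 and 12.11 to 12.19, and with it 6 members were called while their median was -0.21. The enterocyte mean was 13.22 to 13.27 and 13.28 to 13.36.

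At day 30, after weaning, 2 of 41 members differed between the genotypes, where 1.98% of all genes did. Acaa2 was lower, as given above (0.943% of all genes were lower). Pex11a was higher (1.04% were higher). The members' median was -0.07 against a median of 0.00 over all genes, 33 of 41 had a difference below 0 against 51.8% of all genes, and the knockout values lay wholly below those of wild type for 12 members against 7.49% of all genes. The nearest uncalled members were Crot (-0.24, limma adjusted p = 0.054), Acadm and Cpt1a (-0.24, limma adjusted p = 0.093). At an unadjusted p under 0.05, 8 members were lower and 2 higher, where 5.68% of all genes were lower and 5.54% higher. The pancreatic acinar markers had a median difference of -0.36 at this age, with 8 of 8 below 0 and 0 called by limma (2 lower at an unadjusted p under 0.05), and with their mean as a covariate Acaa2 (-0.74, limma adjusted p = 0.00012) and Pex11a (0.34, limma adjusted p = 0.032) kept their calls. The count was 5 with an intensity trend in the variance model, with array weights, or among genes with a group mean of at least 7.

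Pex11a turned from lower to higher. It measured 9.15, 9.16 and 9.10 in wild type at day 15 and 8.99, 8.84 and 8.88 in the knockout. At day 30 it measured 9.32, 9.33 and 9.35 in wild type and 9.65, 9.72 and 9.62 in the knockout. The genotypes were apart at both ages in opposite directions, with 0.33 at day 30 (SE 0.05, limma adjusted p = 0.0061), or 1.26-fold. Over 28 alternative fits the day 15 difference lay between -0.27 and -0.07 and kept its call in 9. The call at day 30 was kept in all 28.

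**Figure D4:**
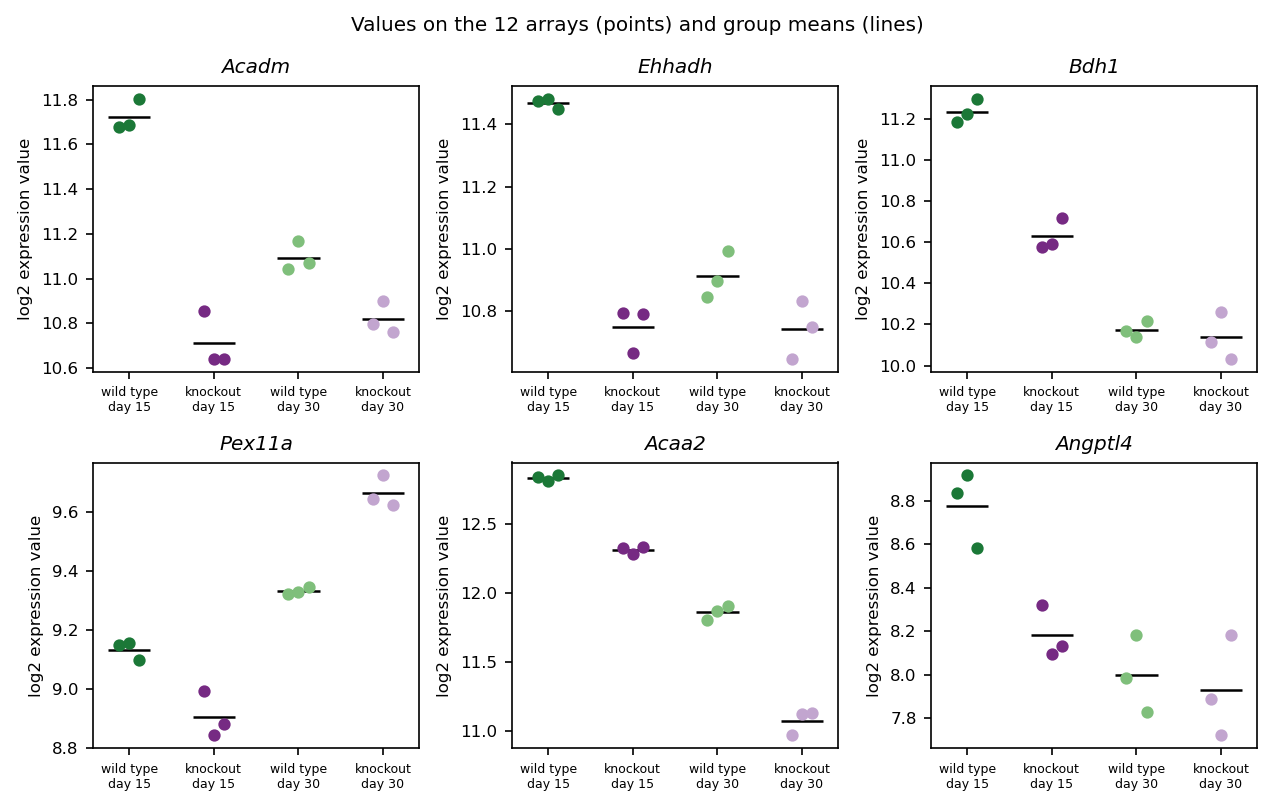
Log2 expression values of 6 members on the 12 arrays, 3 in each group, with group means as lines; each panel has its own vertical axis, which does not start at 0. Acadm, Ehhadh, Bdh1 and Angptl4 are lower in the knockout at day 15 and closer to wild type at day 30, Acaa2 is lower at both ages, and Pex11a crosses from lower to higher.

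Whether the genotype effect differed between the ages was tested directly, as the difference at day 30 minus that at day 15. It was called for 4 members, all above 0, where 0.231% of all genes were called above 0 and 0.456% in either direction. The values were 0.74 for Acadm (SE 0.10, limma adjusted p = 0.0059), 0.56 for Pex11a (SE 0.08, limma adjusted p = 0.0059), 0.55 for Ehhadh (SE 0.09, limma adjusted p = 0.016) and 0.57 for Bdh1 (SE 0.09, limma adjusted p = 0.020). For Angptl4 it was 0.53 with the interval from 0.14 to 0.92 and was not called (limma adjusted p = 0.34). Of 41 members 33 had a value above 0, where 47.0% of all genes were below 0, and at an unadjusted p under 0.05 there were 11 above 0 and 1 below, where 4.89% of all genes were above and 3.96% below.

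The call for Bdh1 ended without any 1 of 4 arrays (wild type day 15 arrays 2 and 3, knockout day 15 array 2, wild type day 30 array 2; 0.54 to 0.57, limma adjusted p from 0.056 to 0.072). That for Ehhadh ended without wild type day 15 array 2 (0.54, limma adjusted p = 0.056) or knockout day 15 array 2 (0.51, limma adjusted p = 0.055). The smooth muscle markers and respiratory chain genes also had a median above 0 in this comparison (0.22 and 0.18). By limma 0 of 12 and 0 of 23 were called, and 4 and 12 were higher at an unadjusted p under 0.05. With either mean as a covariate 0 of the 4 members were called. With smooth muscle the values were 0.62 for Acadm, 0.53 for Pex11a, 0.49 for Bdh1 and 0.47 for Ehhadh (limma adjusted p from 0.099 to 0.24). With the respiratory chain they were 0.60, 0.37, 0.50 and 0.36 in the same order (limma adjusted p from 0.62 to 0.74). With Xist, which varies with the share of female RNA in a mixed pool, as a covariate 1 was called, Pex11a (0.59, limma adjusted p = 0.041). Xist lay between 9.26 and 11.37 across the arrays.

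The sequences before the start sites of these 4 genes are shown because they are the members whose genotype effect differed between ages, and because PPARA binds pairs of the hexamer AGGTCA. They are the 250 bases before the start site from RefSeq on GRCm38.p6, each on the strand of its gene, and capitals mark the hexamer AGGTCA or its variant GGGTCA on either strand. The Acadm window is chr3:153944644-153944893 on the minus strand, that of Pex11a chr7:79743132-79743381 on the minus strand, that of Ehhadh chr16:21787835-21788084 on the minus strand and that of Bdh1 chr16:31422047-31422296 on the plus strand.
Acadm: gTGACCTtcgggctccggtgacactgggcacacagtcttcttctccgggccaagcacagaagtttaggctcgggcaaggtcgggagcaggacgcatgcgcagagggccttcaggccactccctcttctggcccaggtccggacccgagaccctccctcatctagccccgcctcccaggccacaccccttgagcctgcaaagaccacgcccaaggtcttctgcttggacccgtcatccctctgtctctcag
Pex11a: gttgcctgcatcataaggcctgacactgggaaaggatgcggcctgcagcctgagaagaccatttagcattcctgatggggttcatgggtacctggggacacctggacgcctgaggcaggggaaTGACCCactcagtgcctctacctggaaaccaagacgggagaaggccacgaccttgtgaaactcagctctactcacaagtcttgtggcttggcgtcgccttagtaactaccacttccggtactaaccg
Ehhadh: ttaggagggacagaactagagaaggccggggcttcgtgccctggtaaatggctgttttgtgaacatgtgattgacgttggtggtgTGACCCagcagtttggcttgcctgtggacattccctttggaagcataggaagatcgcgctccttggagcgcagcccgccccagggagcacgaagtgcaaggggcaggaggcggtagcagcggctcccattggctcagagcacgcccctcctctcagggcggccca
Bdh1: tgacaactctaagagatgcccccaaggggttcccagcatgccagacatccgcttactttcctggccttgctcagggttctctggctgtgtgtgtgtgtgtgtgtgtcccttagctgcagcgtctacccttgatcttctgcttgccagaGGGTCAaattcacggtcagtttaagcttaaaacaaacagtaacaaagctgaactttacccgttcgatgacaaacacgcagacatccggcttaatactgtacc

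Each of these windows held 1 hexamer, AGGTCA for Acadm and GGGTCA for the others, and another listed start of Bdh1 held none. Windows were found for 35 of 41 measured members, 38 in all. The hexamer AGGTCA or GGGTCA, on either strand, occurred in 14 of those 38 (36.8%) and in 23.8% of all 32851 windows. The variant GGGTCA was chosen after the sequences had been seen, so these shares are no independent comparison. It alone gave the matches of Etfdh, Pex11a, Oxct1, Ehhadh, Bdh1 and Acsl5. Acot5 was counted through overlapping windows that start at 84069074 and 84069075. The direct repeat of AGGTCA with 1 base of any kind between the copies, with up to 2 mismatches on either strand, occurred in 4 of 38 (10.5%) and in 3.24% of all windows, and every window with an exact AGGTCA in the repeat is counted under the hexamer as well. The direct repeat was in none of the windows printed above for Acadm, Pex11a, Ehhadh and Bdh1, where only single hexamers are marked. The 4 matches are shown with the bases that match the repeat in capitals.
Acot12: AGGTgAgAGGTCA
Acot4: cGGcCAaAGGTCA
Echs1: AGGTCAcgGGTCc
Etfa: AGGgCAaAGGTaA

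The match of Acot12 had 1 mismatch and the others 2. With age in wild type, Acot12 and Acot4 fell by 0.43 and 1.65, and the changes of Echs1 and Etfa, 0.16 and -0.15, were not called. The letters ATCAAT, the core bound by Onecut factors, were in 0 of 38 member windows and in 6.72% of all windows on either strand. A match is no evidence of binding, and these windows leave out more distant elements.

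Genes of the same pathways outside the 41 gave a mixed picture. Of 39 other measured fatty acid oxidation genes, 10 fell and 11 rose with age in wild type (median -0.03), and 10 fell and 13 rose in the knockout. Among all genes 17.0% fell and 12.3% rose in wild type, and 17.2% and 13.8% in the knockout. The largest falls in wild type were those of the very-long-chain acyl-CoA synthetase Slc27a2 (-1.29), of Acot6 and of the peroxisomal catalase Cat (-0.90). At day 15, 2 of 39 were lower in the knockout (2.03% of all genes were), Acsf2 (-0.48) and Phyh (-0.33), the latter an enzyme of branched-chain alpha-oxidation. In all, 31 of 39 had a difference below 0, against 54.1% of all genes, and the median was -0.13 against -0.01. At an unadjusted limma p under 0.05, 14 were lower and 3 higher, where 8.99% and 6.22% of all genes were. For 15 of 39 the knockout values lay wholly below those of wild type, against 12.2% of all genes. At day 30, 4 were lower and 1 higher, where 0.943% and 1.04% of all genes were. Among them were Phyh (-0.58), the peroxisomal lipid carrier Scp2 (0.53) and Cat (-0.37).

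Of 4 measured genes of ketone formation and transport, all fell with age in wild type, led by the transporter Slc16a6 (-1.05). At day 15, 2 of 4 were lower in the knockout (2.03% of all genes were), Slc16a7 (-0.50) and Bdh2 (-0.42). The 12 regulators ran mostly upward with age, with 7 rising and 1 falling in wild type and 6 and 1 in the knockout. The shares over all genes were 12.3% rising and 17.0% falling in wild type, and 13.8% and 17.2% in the knockout. The receptor Ppard rose 1.79-fold and 1.96-fold and the coactivator Ppargc1a rose 1.58-fold and 2.14-fold, while Creb3l3, a liver and gut factor of the fasting response, fell by 0.27 and 0.41. Hnf4a rose by 0.23 in wild type and had 0.06, not called, in the knockout. Between genotypes, 1 of 12 regulators was lower at day 15 (Ppargc1b, -0.27) and 0 of 12 were called at day 30 by limma (1 lower and 2 higher at an unadjusted p under 0.05).

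**Figure D5:**
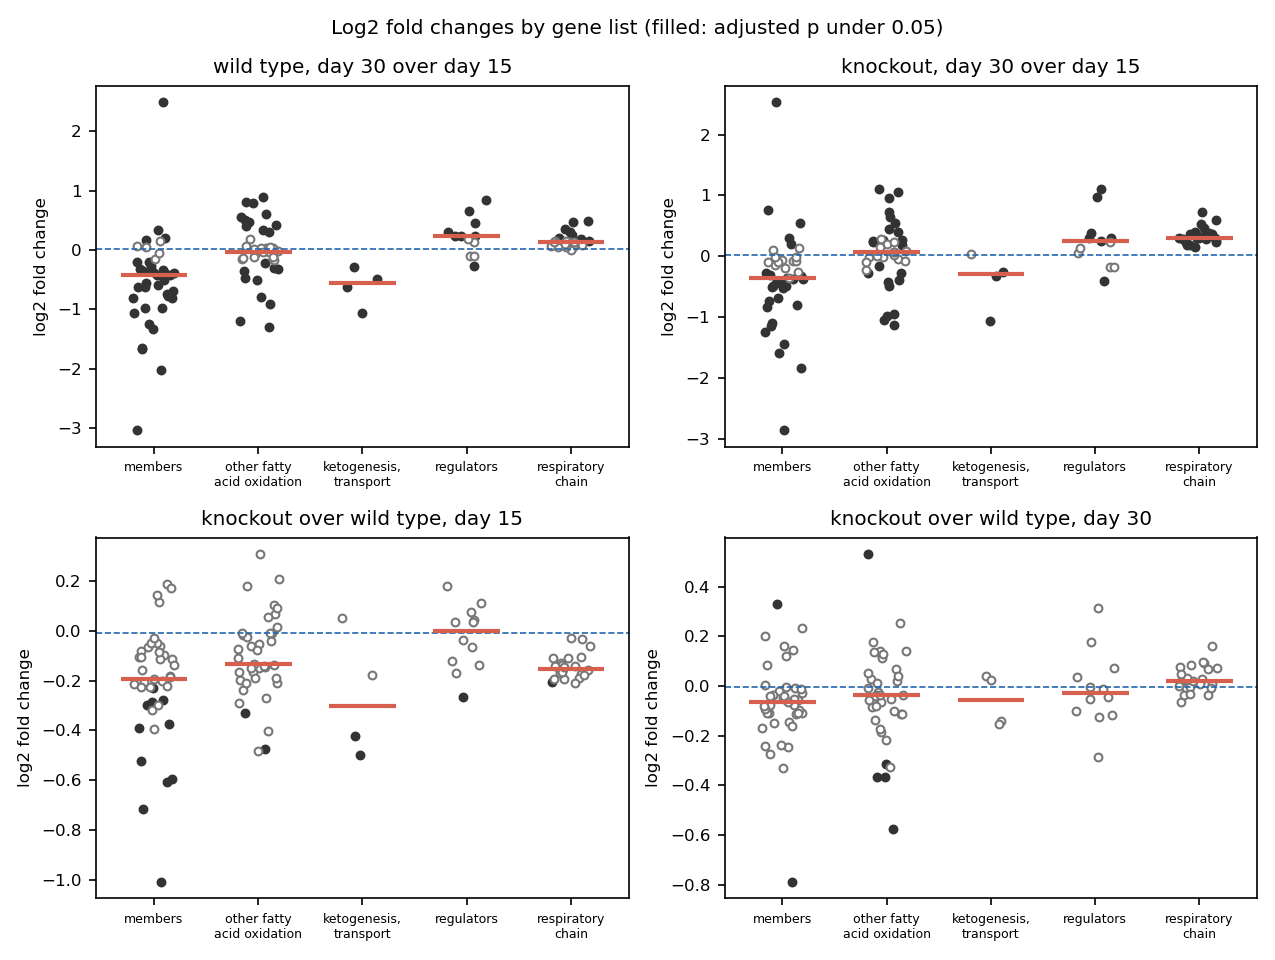
Log2 fold changes of the members and of 4 related lists in each of 4 comparisons; each point is 1 gene, filled where called by limma, the red line is the list's median and the dashed blue line the median of all 19938 genes. Members lie mostly below the dashed line with age, while most respiratory chain genes lie above it.

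The respiratory chain, which receives the electrons of beta-oxidation, moved the other way with age. Of 23 measured nuclear genes of its complexes, 9 rose and 0 fell in wild type by limma (median 0.14; 14 and 0 at an unadjusted p under 0.05), and 23 rose in the knockout (median 0.30). Among all genes 12.3% rose in wild type and 13.8% in the knockout. Their mean per array was 10.89 to 10.95 in wild type and 10.73 to 10.82 in the knockout at day 15, and 11.07 to 11.12 and 11.09 to 11.14 at day 30.

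Among 13 other target genes of PPARA, 8 fell with age in wild type and 9 in the knockout, and 0 rose by limma in either, also at an unadjusted p under 0.05. Over all genes, 17.0% fell and 12.3% rose in wild type, and 17.2% and 13.8% in the knockout. The fatty acid omega-hydroxylase Cyp4a10 measured 10.17, 10.43 and 10.35 in wild type at day 15 and 7.01, 6.61 and 6.69 in the knockout. At day 30 it measured 6.74, 6.65 and 6.80 in wild type and 6.01, 5.70 and 6.02 in the knockout. The knockout was lower at both ages with no overlap, with differences of -3.55 (SE 0.11, limma adjusted p = 3.6e-09) and -0.82 (SE 0.11, limma adjusted p = 0.0018). Outside wild type at day 15, every value of Cyp4a10 lay below the lowest array median, 7.20. The difference between those effects was 2.73 for Cyp4a10 (SE 0.16, limma adjusted p = 5.0e-06) and 3.19 for Cyp4a31 (SE 0.25, limma adjusted p = 9.3e-05), close copies whose probes can read each other's transcript.

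Other PPARA targets had other patterns. Plin2, the coat protein of lipid droplets, fell by 1.85 and 1.90 with age and differed by 0.03 and -0.02 between genotypes, not called. Fabp1, a fatty acid binding protein, was higher in the knockout at day 30 (0.31, SE 0.06, limma adjusted p = 0.013) and had 0.10, not called, at day 15. Vnn1 was higher in the knockout at day 15 (1.09) and Retsat lower (-0.48). Cyp4a14 had differences of -0.14 and 0.09 that were not called.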

How the data were processed

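RNA of 12 pools of mouse duodenum was extracted with Trizol, and 5.5 µg per pool was labelled as biotinylated cRNA for Affymetrix gene arrays, per the labels' protocols. The authors deposited 1 log2 value per feature and array, from the RMA method of Affymetrix Expression Console version 1.1, per the submitters' processing notes. RMA corrects background, normalizes quantiles and summarises probes, so shifts common to most genes are taken out, and folds of very bright or dim genes are understated. The base of the logarithm is not stated and was taken as 2 from the method and the range. For the array annotation, the genome build is not stated in the labels used here.

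Of 35557 features, 21789 had 1 gene symbol, 1621 several and 12147 none. The feature with the highest mean was used for each of 999 genes with several. RefSeq names on GRCm38.p6 matched 21698 features and updated 0 symbols. A linear model with 4 group means (8 residual degrees of freedom) was fitted to all genes in R version 4.3.3 with limma version 3.58.1, using eBayes at default settings and Benjamini-Hochberg adjustment within each of 5 comparisons. Errors of means are SDs and those of fold changes moderated SEs. Figures were drawn with matplotlib version 3.10.9.

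The members and lists were chosen with earlier results of these data known. Any member could be named. Values on every array are given for members called between genotypes at either age or for the difference of those effects, and for the 8 largest age changes in wild type. Of related lists, 12 leading genes and the 3 largest called changes per list and comparison could be named. Respiratory chain genes are given as counts. The motif variant GGGTCA was chosen after the sequences had been seen.

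Alternatives were an intensity trend, robust moderation, a filter on dim genes, other choices of feature, all features, centring, only the arrays compared, array weights, smooth muscle and pan-epithelial means as covariates, a replicate block and each array left out. Covariates for respiratory chain, stomach and Brunner gland, pancreas acinar markers and Xist were added after seeing the data. When the day 15 genotype comparison was simulated over 19938 genes, changes of 0.25, 0.5 and 1 on the log2 scale were called in 10.4%, 68.7% and 98.5% of cases, with 5 false calls. The simulated noise was normal and independent between genes. It changed 67, 67 and 66 genes by these sizes, whereas 764 genes were called in the data. These rates therefore need not hold for the real comparison.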

Additional observations from a re-analysis of the deposited data

Results flagged for a closer look

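The genotype effect differed between day 15 and day 30 for 4 members and for 2 other PPARA target genes, by limma's test of that difference (day 30 minus day 15). The values were 0.74 for Acadm, 0.56 for Pex11a, 0.55 for Ehhadh and 0.57 for Bdh1, and, outside the group, 2.73 for Cyp4a10 and 3.19 for Cyp4a31. In Acadm, Ehhadh, Bdh1, Cyp4a10 and Cyp4a31 the knockout was lower at day 15 and the difference was smaller at day 30, and in Pex11a it turned from lower to higher. The day 15 call of Pex11a was kept in 9 of 28 alternatives. Outside wild type at day 15, Cyp4a10 was dimmer than the array medians, and folds of dim genes are understated. A part of low signal in its smaller difference at day 30 was not tested. Each group had 3 arrays, too few for a test of single outlying values.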

How the results depend on the processing

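The counts rest on pools, and depth here means signal over background, for which no detection calls were used. Without 1 array at a time, the counts of members called ranged from 34 to 36 for age in wild type, 26 to 29 for age in the knockout, 6 to 13 for genotype at day 15, 2 to 3 for genotype at day 30 and 2 to 4 for the difference of genotype effects; that last count was 2 without wild type day 15 array 2 or knockout day 15 array 2. With smooth muscle as a covariate these 5 counts were 2, 4, 2, 2 and 0, with the pan-epithelial mean 11, 24, 6, 2 and 1, and with the respiratory chain mean 23, 3, 1, 2 and 0; the cause was not tested. The members' medians in these comparisons, in the same order, were -0.27, -0.18, -0.11, -0.06 and 0.04 with smooth muscle, -0.53, -0.42, -0.21, -0.05 and 0.14 with the pan-epithelial mean and -0.61, -0.60, -0.05, -0.09 and -0.06 with the respiratory chain mean, against -0.43, -0.35, -0.19, -0.07 and 0.11 without a covariate. Covariates also enlarged the SE. For the age change of Acadl in wild type it was 0.05 without a covariate, 0.23 with smooth muscle and 0.13 with the pan-epithelial mean. With the stomach and Brunner gland mean or the pancreas acinar mean 5 members were called at day 15, and Xist gave 1 for the difference. At day 30 an intensity trend, array weights or only genes with a group mean of at least 7 gave 5, in the last case over fewer genes. For genotype at day 15 these settings gave 15, 16 and 15, against 11 in the main fit. All features in the fit, or only the arrays compared, gave 8 at day 15. Single age changes turned with the smooth muscle mean, in wild type to 0.135 for Slc25a20, 0.0713 for Cpt2, 0.0064 for Acadvl, 0.0983 for Acaa1b and 0.087 for Acot3, and in the knockout to 0.0403 for Slc25a20. With the respiratory chain mean Decr2 turned to -0.0287 in wild type and -0.0986 in the knockout, and in the knockout Echs1 to -0.0341 and Acaa1a to -0.0015. With the pan-epithelial mean Acaa1a turned to -0.0159 in wild type. None of the turned values was called. Under all 28 alternatives run for them, Acadm at day 15 (-1.08 to -0.86) and Acaa2 (-0.83 to -0.73) and Pex11a (0.30 to 0.35) at day 30 kept their calls. So did the age changes of Acot1 (-3.50 to -2.58 in wild type, -3.80 to -2.53 in the knockout) and Oxct1 (2.44 to 2.62 and 2.44 to 2.63). The age change of Acot2 did so in the knockout (-2.25 to -1.66). Same-numbered arrays did not deviate together (18 pairs, r from -0.25 to 0.36, 7 above 0.1, and 5 of 12 arrays correlated best with their own number), and with the replicate number as a block the 5 counts were 34, 29, 9, 2 and 4. The fit of only the arrays compared cannot give the difference of genotype effects.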
